A study of Mus musculus with 4 samples.

Results

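Hemoglobin is the oxygen carrier of red blood cells and is built from pairs of alpha and beta globin chains, each holding a heme group. In the adult mouse the alpha chains are encoded by Hba-a1 and Hba-a2 and the beta chains, in C57BL/6 animals, by Hbb-bs and Hbb-bt. Alas2 encodes the erythroid enzyme that catalyzes the first step of heme synthesis. These RNAs are made in maturing erythroid cells, and globin RNA persists for a time in young circulating red cells, so that in a lymph node it is a marker of blood. Red cells can enter the sinuses, the lymph-filled spaces beneath the capsule and in the medulla, where macrophages take them up and recycle their iron.

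The 5 genes were examined among 32287 genes counted by Visium spatial transcriptomics, in which each barcoded spot of a slide captures the RNA of the small region of a tissue section above it. They were chosen by name, and their levels per capture area, their position at the tissue edge, the share of their unique molecular identifiers (UMIs, 1 per captured RNA molecule) in the richest spots and the grouping of those spots on the array were part of that choice, so that these values are descriptions here and carry no test. The sections held popliteal lymph nodes (PLNs), which drain the knee and ankle, of male C57BL/6 mice that were wild-type (WT) or TNF-Tg, carrying a human tumor necrosis factor transgene that causes a spontaneous inflammatory arthritis. The WT area held 10 PLNs of 5 mice aged 5.5 months, the Early arthritis area 6 PLNs of 3 TNF-Tg mice aged 5.5 months, and the areas Advanced 1 and Advanced 2 each held 6 PLNs of 3 TNF-Tg mice aged 8.5 to 9 months. Nodes of several animals lay on 1 area and were not assigned to animals, so an area was the unit of replication, with 1 WT, 1 Early and 2 Advanced areas. Age cannot be told apart from stage between Early and Advanced, nor from genotype and stage between WT and Advanced.

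The 4 areas held 6119 spots under tissue, 833 to 2015 per area, and 1808678 to 5180493 UMIs per area. A spot with fewer than 6 in-tissue neighbors on the hexagonal array was called an edge spot and a spot with all 6 an interior spot. Median depth was 2113 to 5541 UMIs in edge spots and 140.5 to 250.5 in interior spots, so levels were given as UMIs per 10000 UMIs, with exact 95% Poisson intervals that cover counting error only. Of 3110 spot barcodes 1798 occurred on at least 2 areas, since barcodes mark array positions and not cells. Among genes of the sinuses, Marco, a receptor of sinus macrophages, had 17382 UMIs in the deeper edge spots and Lyve1, a receptor of lymphatic endothelium, had 1798.

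Both globin pairs are near-identical copies, and the sequences are shown because they set how far the 4 genes can be told apart. On GRCm38 Hba-a1 lies at chr11:32283511-32284465 and Hba-a2 at chr11:32296489-32297298, both on the plus strand and 12023 bases apart. Hbb-bs lies at chr7:103826534-103828096 and Hbb-bt at chr7:103812524-103813996, both on the minus strand. Each globin gene has 3 exons. The coding sequences of the alpha pair, 429 bases each, differed by 1 substitution (C381T, counted from the first base of the start codon, Hba-a1 base first), and those of the beta pair, 444 bases each, by 1 substitution (C417T, Hbb-bs base first). Both differences lie in exon 3. The 41 coding bases around each are given below, with the differing base in capitals.
Hba-a1: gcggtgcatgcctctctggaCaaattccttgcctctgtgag
Hba-a2: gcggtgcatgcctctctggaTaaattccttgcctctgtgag
Hbb-bs: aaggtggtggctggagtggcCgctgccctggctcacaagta
Hbb-bt: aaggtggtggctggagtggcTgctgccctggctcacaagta
These stretches occupy chr11:32284323-32284363, chr11:32297140-32297180, chr7:103826672-103826712 and chr7:103812663-103812703, the last pair on the minus strand. After the stop codon the alpha transcripts shared 74 identical bases and Hba-a2 ran on for 16 more, whereas the beta transcripts, with 131 and 132 bases there, differed by 40 edits. Reads that fall within the shared stretches of the alpha pair cannot be assigned to 1 gene, so the split between Hba-a1 and Hba-a2 is less certain than that between Hbb-bs and Hbb-bt. The sum of a pair does not depend on how shared reads are split between its members. If shared reads were dropped, however, the alpha sum would be too low.

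Upstream sequences are shown because the globin genes and Alas2 were counted in the same spots. The 115 bases that end 10 after the transcription start, from RefSeq on GRCm38.p6, are printed for 1 alpha gene, both beta genes and Alas2, with 4 motifs in capitals wherever they occur on either strand. A first motif was the hexamer AGATAA, which GATA factors bind, counted jointly with its variant TGATAA and with the form of each that has G in the last place. Another was CACCC, which Klf factors bind. CCAAT and the TATAA of the TATA box were the others.
Hba-a2: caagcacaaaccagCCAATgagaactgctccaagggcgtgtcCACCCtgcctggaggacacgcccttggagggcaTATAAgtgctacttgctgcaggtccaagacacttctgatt
Hbb-bs: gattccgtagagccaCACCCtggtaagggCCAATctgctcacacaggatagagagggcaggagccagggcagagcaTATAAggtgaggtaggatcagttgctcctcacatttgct
Hbb-bt: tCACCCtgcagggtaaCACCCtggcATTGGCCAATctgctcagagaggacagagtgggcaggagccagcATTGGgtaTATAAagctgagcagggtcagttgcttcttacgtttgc
Alas2: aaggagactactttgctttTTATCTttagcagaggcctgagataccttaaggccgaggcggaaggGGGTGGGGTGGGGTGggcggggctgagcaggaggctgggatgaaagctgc
They lie at chr11:32296387-32296501, chr7:103827919-103828033 and chr7:103813914-103814028 (minus strand), and chrX:150547312-150547426. Across the full 300 bases from 250 before the start to 50 after it, Hba-a1 and Hba-a2 shared an identical run of 297 bases, and the longest run shared by Hbb-bs and Hbb-bt was 14. CACCC occurred in all 5 upstream sequences and CCAAT in the 4 globin ones. A GATA hexamer occurred in all but that of Hbb-bt. In 32851 promoters of the same length, 57.5% held CACCC, 37.4% CCAAT, 29.8% a GATA hexamer and 24.9% TATAA, so each is common and a match is a description only.

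The summed level of the 5 genes was 3.71 UMIs per 10000 in WT (95% interval 3.43 to 4.00), 14.9 in Early (14.6 to 15.2), 13.1 in Advanced 1 (12.7 to 13.5) and 10.96 in Advanced 2 (10.6 to 11.3). All 3 TNF-Tg areas lay above the WT area, by 4.02 times in Early, 3.52 times in Advanced 1 and 2.95 times in Advanced 2. The mean of the Advanced areas was 12.0 ± 1.49 (SD, n = 2), 0.806 times Early. More red cells in a spot and more globin RNA per red cell cannot be told apart from these counts. The gap to WT rested on few spots: with the richest 1% of spots of each area left out, the level was 1.59 in WT, 1.24 in Early, 7.22 in Advanced 1 and 1.40 in Advanced 2, so that Early and Advanced 2 were no longer above WT and Advanced 1 alone was.

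Of the alpha globin genes, Hba-a1 was counted 131 times in WT, 1762 times in Early, 704 times in Advanced 1 and 723 times in Advanced 2. These are levels of 0.724, 3.40, 2.08 and 2.26 UMIs per 10000. Hba-a2 had 163, 1672, 1283 and 922 UMIs in the same order, or 0.901, 3.23, 3.80 and 2.88 per 10000. Hba-a1 was highest in Early and Hba-a2 in Advanced 1, and for both genes WT was lowest.

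Of the beta globin genes, Hbb-bs was the most counted gene of the set in every area, with levels of 1.91 per 10000 in WT, 7.46 in Early, 6.12 in Advanced 1 and 5.10 in Advanced 2. Hbb-bt was at 0.177 in WT, 0.759 in Early, 0.989 in Advanced 1 and 0.644 in Advanced 2. The order of the areas again put WT last, and Early first for Hbb-bs but Advanced 1 first for Hbb-bt. Alas2 was rare in every area, with 0 UMIs in WT, 32 in Early, 27 in Advanced 1 and 23 in Advanced 2. Its share of the UMIs of the 5 genes was 0.414% in Early, 0.611% in Advanced 1 and 0.656% in Advanced 2. At this share only a few Alas2 UMIs could have been counted in WT: 0 of 671 UMIs allows a share of up to 0.447%, or 3 counts, so the WT value was not distinguishable from that of Early.

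The position of the UMIs differed between areas in a way that the area sums did not show. In WT the summed level was 4.24 UMIs per 10000 in edge spots and 1.66 in interior spots, a ratio of 2.56. In Early it was 19.1 against 1.82, a ratio of 10.5. In Advanced 2 it was 16.5 against 0.908, a ratio of 18.2. Those 3 areas held 90.8%, 97.0% and 97.1% of the UMIs of the 5 genes in edge spots, which were 30.4%, 32.1% and 22.6% of the spots. Edge spots were deeper, however, and held much of the RNA of all genes. They had 1434964 of 1808678 UMIs in WT, 3921972 of 5180493 in Early and 2063730 of 3198238 in Advanced 2. The ratios take this into account and the shares do not. Advanced 1 stood apart: its edge spots were at 12.9 per 10000 and its interior spots at 13.2, a ratio of 0.982. The 15.6% of its spots at the edge held 47.4% of the UMIs of the 5 genes and 1617565 of 3378219 UMIs of all genes.

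**Figure D1:**
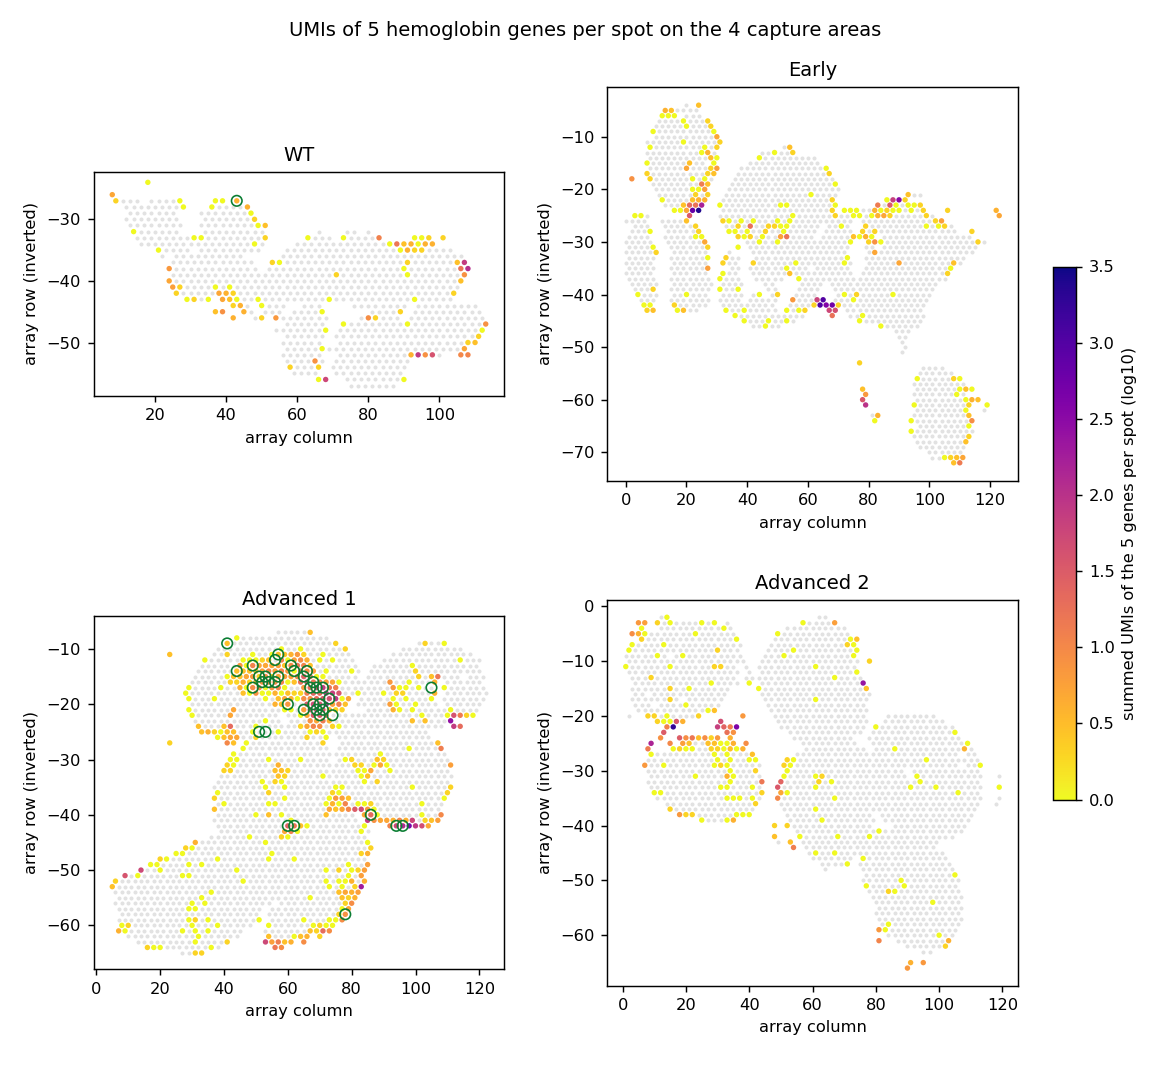
Array position of every spot under tissue on the 4 capture areas. Color gives the summed UMIs of Hba-a1, Hba-a2, Hbb-bs, Hbb-bt and Alas2 per spot on a log10 scale, gray spots had none, and green rings mark spots with a UMI of 8 other erythroid genes; dark spots sit at the rim on the WT, Early and Advanced 2 areas, while Advanced 1 also has a broad interior field that holds most of the green rings.

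Gene by gene, the edge to interior ratio was 2.84 in WT, 10.6 in Early, 1.19 in Advanced 1 and 30.02 in Advanced 2 for Hba-a1. For Hba-a2 it was 1.76, 7.81, 0.666 and 16.9. For Hbb-bs it was 2.95, 11.8, 1.22 and 17.4. Over all spots these ratios were highest in Early and Advanced 2, and in Advanced 1 the genes of each pair fell on opposite sides of 1. Hbb-bt had 30 UMIs at the edge and 2 in the interior in WT, and ratios of 15.4 in Early, 0.729 in Advanced 1 and 10.8 in Advanced 2. Alas2 had 31 edge and 1 interior UMIs in Early, 22 and 1 in Advanced 2, and 11 and 16 in Advanced 1. The interior level of Hbb-bs was 0.749 in WT, 0.810 in Early and 0.441 in Advanced 2 but 5.53 in Advanced 1, and that of Hbb-bt was 0.0535, 0.0636 and 0.0881 but 1.14 in Advanced 1. The excess at the rim rested on the richest spots: with the leading 1% of spots left out, the summed edge to interior ratio was 1.23 in WT, 0.576 in Early, 0.403 in Advanced 1 and 1.87 in Advanced 2, so that in Early it turned and the interior was the higher side.

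**Figure D2:**
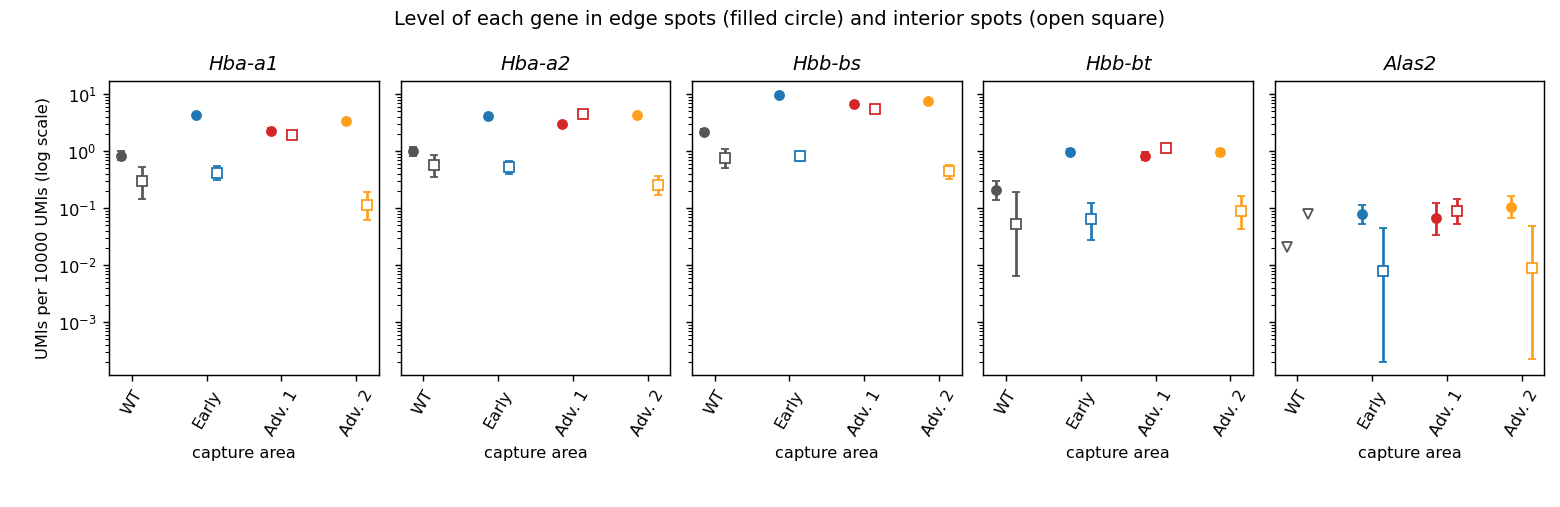
Level of each gene in UMIs per 10000 UMIs (log scale) in edge spots (filled circles) and interior spots (open squares) of each area, with exact 95% Poisson intervals; a triangle marks the upper limit of 3 counts where no UMI was counted. Interior values lie below edge values on WT, Early and Advanced 2 and beside them on Advanced 1, where interior Hbb-bs was 5.53.

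Across the threshold that defines the edge, spots with 5 neighbors were at 1.96 UMIs per 10000 in WT and spots with 6 at 1.66. In Early the values were 19.7 and 1.82, in Advanced 2 1.89 and 0.908, and in Advanced 1 7.12 and 13.2. Between these neighboring classes the level changed most in Early, and in Advanced 1 alone it was higher on the interior side. To set detection apart from depth, each spot with at least 500 UMIs was thinned to 500: a UMI of the 5 genes was then present in 10.8% of edge spots in WT, 8.41% in Early, 18.6% in Advanced 1 and 11.5% in Advanced 2. The interior shares were 4.77%, 5.08%, 27.4% and 3.46%. Without thinning, 38.5% of such edge spots and 15.2% of interior spots in WT had a UMI, and 57.2% and 52.4% in Advanced 1. At equal depth the share of positive edge spots was thus lower in Early than in WT, although the level over those spots was 19.1 in Early and 4.24 in WT, and in Advanced 1 alone the interior share was above the edge share.

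A handful of spots carried most of the signal. The single richest spot held 16.2% of the UMIs of the 5 genes in WT, 32.4% in Early, 10.3% in Advanced 1 and 53.9% in Advanced 2. The richest 1% of spots, 9, 15, 21 and 18 spots per area, held 62.0%, 92.0%, 49.95% and 87.9%, although the same spots held 11.3%, 3.51%, 9.43% and 5.08% of all UMIs. All 15 of these leading spots in Early and all 18 in Advanced 2 were edge spots, as were 8 of 9 in WT and 12 of 21 in Advanced 1. The UMIs reached 50% of the area sum within 5 spots in WT, 3 in Early, 1 in Advanced 2 and 22 in Advanced 1.

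The richest spots differed more in composition than in depth. In Early, the first spot had 2503 UMIs of the 5 genes among 21728, and the third, with 992 of 2703, gave 36.7% of its RNA to them. In Advanced 2 the first spot had 1890 of 5257, or 36.0%. In Advanced 1 the first spot had 455 of 24776 and in WT 109 of 32171. No WT spot gave as much as 1% of its UMIs to the 5 genes among its 10 richest, where the highest share was 0.810%.

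**Figure D3:**
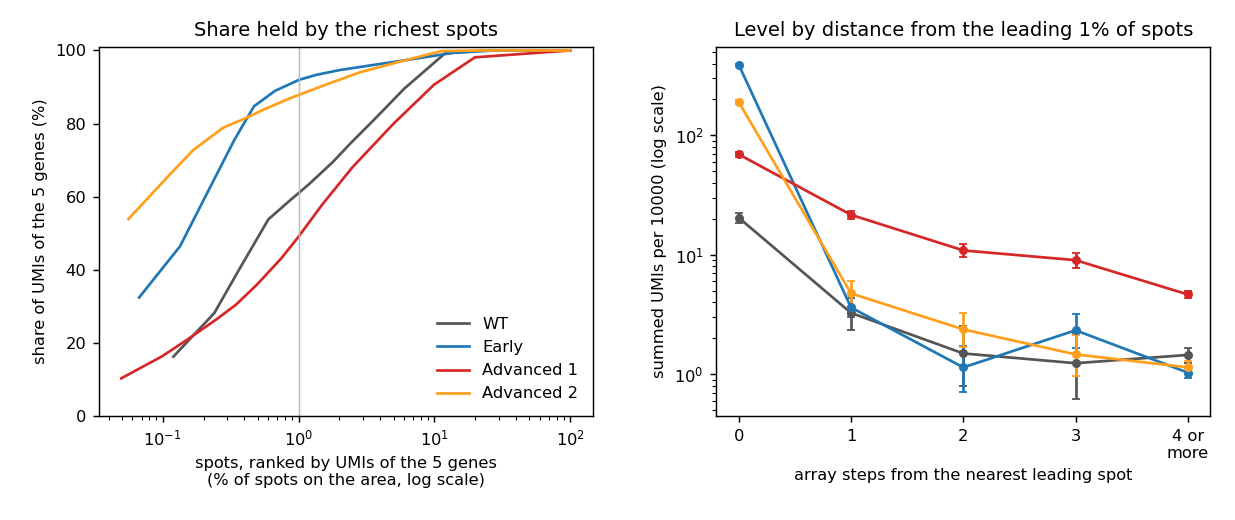
Left, cumulative share of the UMIs of the 5 genes (%) against spots ranked by those UMIs (% of the spots on the area, log scale); the gray line marks 1%, where the share was 62.0% in WT, 92.0% in Early, 49.95% in Advanced 1 and 87.9% in Advanced 2. Right, summed level (UMIs per 10000, log scale, exact 95% Poisson intervals) by array steps from the nearest leading spot, which falls more slowly on Advanced 1 than on the other areas.

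Leading spots lay next to each other. A leading neighbor was present for 33.3% of the leading spots in WT, 100% in Early, 71.4% in Advanced 1 and 66.7% in Advanced 2, against 2.67%, 1.22%, 2.66% and 1.47% of all other spots. In Early 1 patch of 4 spots held 43.9% of the UMIs and another of 7 spots 40.97%. These patches lay in different pieces of tissue, of 924 and 313 spots with 50.3% and 46.3% of the UMIs, and 2 further pieces of Early tissue held 0.906% and 0.207%. In Advanced 2 a pair of spots held 54.9%. The Early area thus differed among its own pieces of tissue, with summed levels of 15.2, 23.7, 0.983 and 0.616 per 10000.

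The level fell steeply away from the leading spots except in Advanced 1. In Early it was 390.3 UMIs per 10000 in the leading spots, 3.61 at 1 array step and 1.14 at 2 steps. In Advanced 2 it was 190 (95% interval 183 to 197), 4.74 and 2.37, and in WT 20.4, 3.25 and 1.49. In Advanced 1 it was 69.3, 21.6, 10.9 and 9.00 at 0, 1, 2 and 3 steps, and still 4.64 at 4 or more. Far from any leading spot, the level was 1.45 in WT, 1.03 in Early and 1.14 in Advanced 2, so a low level near 1 per 10000 was shared by those 3 areas and exceeded on Advanced 1.

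The interior signal of Advanced 1 formed 1 large connected field. When spots with at least 3 UMIs of the 5 genes that touched on the array were joined, a cutoff chosen after the maps were seen, the largest patch had 113 spots in Advanced 1, 6 in WT, 12 in Early and 10 in Advanced 2. Of the 113 spots 111 were interior. They held 1735 UMIs, 39.3% of those of the area, with a median of 8 and a maximum of 122 per spot, and a level of 29.8 per 10000 (28.4 to 31.2). A cutoff on UMIs is passed more easily by deep spots. Median depth was 4939 UMIs in the field and 222 over all interior spots of the area. The field was broad and moderate where the rim patches of Early and Advanced 2 were small and intense.

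As whole lists, other erythroid genes were highest on Advanced 1 but present on all 4 areas. The red cell membrane list of 13 genes was at 0.426 UMIs per 10000 in WT, 0.465 in Early, 0.616 in Advanced 1 and 0.497 in Advanced 2, and the list of 16 erythroid regulators and enzymes, several of which other cells also express, at 5.30, 5.30, 6.28 and 5.83. A few members, picked after their counts were seen, were nearly absent outside Advanced 1. Slc4a1, the anion exchanger of the red cell membrane, had 17 UMIs in Advanced 1, 1 in WT and 0 in Early and Advanced 2. Klf1, an erythroid transcription factor, had 6, 0, 0 and 0 in that order, Rhd, a Rh blood group membrane protein, 9, 0, 0 and 0, and Epb42, a membrane skeleton protein, 5, 0, 0 and 0. Summed with Rhag, Kel, Car1 and Trim10, a group of 8 from these 2 lists, they had 50 UMIs in Advanced 1, 1 in WT and none in the other areas, where 0 of 5180493 and 0 of 3198238 UMIs were counted. As a level this was 0.148 UMIs per 10000 in Advanced 1 (0.1099 to 0.195), with upper limits, at 3 counts, of 0.00579 in Early and 0.00938 in Advanced 2.

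These UMIs lay in the interior with the globin RNA. Of the 50, 43 were in interior spots, and 30 were inside the 113-spot field. Interior spots with at least 500 UMIs that held such a UMI, 32 in number with a median depth of 5463.5, had a summed level of the 5 hemoglobin genes of 32.5 per 10000 (29.97 to 35.2), against 11.7 (11.2 to 12.3) in the other 542, with a median depth of 1560.5. Depth moved with the presence of such a UMI, and its part in this difference was not tested. Gata1, the master erythroid transcription factor, had 3 UMIs in Advanced 1 and 1 or 2 in each other area.

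Genes of immature granulocytes, named after their values were seen, also stood highest on Advanced 1. Mpo, the myeloperoxidase of primary granules, had 92 UMIs there against 8 in WT, 23 in Early and 17 in Advanced 2, and Ms4a3, a granulocyte progenitor gene, 31 against 2, 3 and 7. The neutrophil list of 11 genes was at 11.7 UMIs per 10000 in Advanced 1 and 5.13 to 6.60 elsewhere. Within the field itself, however, the neutrophil list was at 14.0 per 10000 in 110 spots with at least 500 UMIs and at 14.6 in the 464 other interior spots. The sinus macrophage list, 12 genes led by Marco, was at 58.8 in the field and 31.8 outside it, the fat list at 4.24 and 6.48, and the lymphatic endothelial list at 6.32 and 6.52. These are sums over spots of 1 area, with no replicate. Median depth was 4975 UMIs in the 110 spots and 1297.5 in the 464 others, and its part in these values was not tested.

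The name sinus was then checked against markers, in edge spots only, so that sinuses in interior spots were not covered. Edge spots as a class were not marked by sinus genes. Against interior spots Marco was at -0.39 ± 0.17 on the log2 scale (edgeR adjusted p = 0.167). Of 8 lymphatic endothelial genes 0 were higher, of 10 sinus macrophage genes 1 and of 5 genes of B-cell follicles 3, where 4.14% of 11675 genes were. Edge spots with at least 500 UMIs were split, area by area, into the 25% with the highest mean log2(UMIs per 10000 + 1) of a marker list and the others, UMIs were summed per area and class, and each gene was tested with edgeR's quasi-likelihood test with area as a block and Benjamini-Hochberg adjustment over all genes tested. These contrasts by marker list played no part in the choice of the 5 genes. In spots high for the sinus macrophage list, 0 of the 5 genes passed an adjusted p of 0.05, where 15.9% of all 10200 genes did, 9.29% higher and 6.61% lower, and DESeq2 also called 0. The unadjusted p of every member was above the threshold as well, from 0.252 for Hbb-bs to 0.939 for Hba-a2.

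The areas did not move together in that contrast. The summed level in sinus macrophage-high against other edge spots was 5.64 against 3.05 UMIs per 10000 in WT, 22.9 against 16.6 in Early, 19.3 against 8.11 in Advanced 1 and 6.83 against 22.1 in Advanced 2. It was higher in 3 of 4 areas and lower in Advanced 2, whose richest spot fell outside the class. Without Advanced 2 the fit called 3 of 4 members tested, Hbb-bs at 1.13 (edgeR adjusted p = 0.00127), Hba-a1 at 0.98 (adjusted p = 0.00591) and Hbb-bt at 0.85 (adjusted p = 0.0256), but not Hba-a2 at 0.35 (adjusted p = 0.262). The share of all genes called in that fit is not given here, so the count has no background beside it. With the leading 1% of spots left out the ratio of high to other spots was 0.710, 1.14, 1.63 and 2.03, now lower in WT only, and 0 of 4 members tested were called.

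The same spots served as a positive check for genes of sinus macrophages and of iron recycling. Of 12 tested genes that clear hemoglobin and heme, 10 were higher in sinus macrophage-high spots and none lower. Hmox1, heme oxygenase, rose by a log2 difference of 2.76 ± 0.14 (SE, 4 areas, edgeR adjusted p = 5.64e-10) and Slc40a1, the iron exporter ferroportin, by 2.15 ± 0.19 (adjusted p = 5.32e-07). Spic, a transcription factor of iron-recycling macrophages, rose by 1.09 ± 0.20 (adjusted p = 0.000975). Hmox1 stood at 7.23 against 1.05 UMIs per 10000 in WT, 2.78 against 0.358 in Early, 1.19 against 0.201 in Advanced 1 and 2.19 against 0.405 in Advanced 2, higher in 4 of 4 areas.

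In spots high for lymphatic endothelial markers 0 of 5 hemoglobin genes passed, where 17.2% of 10319 genes did, 9.60% higher and 7.56% lower, with log2 differences of -0.30 for Hba-a1 to 0.58 for Alas2. DESeq2 called 0 as well, and none had an unadjusted p under 0.05. The summed level was 5.67 against 2.92 in WT, 22.9 against 16.7 in Early, 12.8 against 13.3 in Advanced 1 and 6.58 against 23.1 in Advanced 2. It was higher in 2 areas and lower in 2. Over the 4 areas neither marker set of the sinuses gave a difference that passed. Where 15.9% and 17.2% of all genes passed, 0 of 5 is an unremarkable count, so these tests do not settle the name sinus. Without Advanced 2, 2 members passed, and Hbb-bs was at 0.60 (edgeR adjusted p = 0.0144) where it was at -0.07 with all 4 areas.

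In spots high for blood vessel markers 4 of 5 hemoglobin genes passed, where 15.9% of 10337 genes did, 9.19% higher and 6.69% lower. The marker classes were not separate places. In vessel-high spots 9 of 10 sinus macrophage and 7 of 8 lymphatic endothelial genes tested were also higher and none lower. Marco was among them, at 1.62 ± 0.09 (edgeR adjusted p = 2.16e-13). Alas2 rose by 1.63 ± 0.48 on the log2 scale (edgeR adjusted p = 0.0171), Hbb-bt by 0.95 ± 0.28 (adjusted p = 0.0161), Hba-a1 by 0.76 ± 0.25 (adjusted p = 0.0367) and Hba-a2 by 0.69 ± 0.20 (adjusted p = 0.0149), while Hbb-bs was at 0.69 ± 0.31 (adjusted p = 0.135). The 4 globin genes were higher in 2 of 4 areas, Early and Advanced 1, and lower in WT and Advanced 2. The summed level was 2.74 against 5.30 in WT, 33.6 against 10.1 in Early, 22.1 against 5.23 in Advanced 1 and 12.8 against 19.1 in Advanced 2. Without Early, with DESeq2, with no area term or with the leading 1% of spots left out, 0 members passed, and without Advanced 1 1 did.

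The hemoglobin genes had a higher summed level in fat-high than in other edge spots of every area, though by little in Advanced 1. All 5 passed in spots high for the fat list, where 10.1% of 10735 genes did, 6.06% higher and 4.01% lower. Of the sinus macrophage genes 7 of 11 tested were higher there too, and 5 of 8 lymphatic endothelial genes, with none lower. Fat-high thus does not mean outside the sinuses. Hba-a1 rose by 2.07 ± 0.35 on the log2 scale (edgeR adjusted p = 0.000172), Hba-a2 by 1.98 ± 0.27 (adjusted p = 8.44e-06), Hbb-bt by 1.98 ± 0.27 (adjusted p = 6.92e-06), Hbb-bs by 1.77 ± 0.38 (adjusted p = 0.00282) and Alas2 by 3.15 ± 0.52 (adjusted p = 0.000147). The summed level was 5.50 against 3.74 UMIs per 10000 in WT, 41.4 against 8.78 in Early, 13.7 against 12.6 in Advanced 1 and 47.4 against 2.78 in Advanced 2. It was higher in 4 of 4 areas, by 1.47, 4.71, 1.09 and 17.0 times, and with the leading 1% of spots left out it was again higher in 4 of 4, by 1.23, 2.27, 1.35 and 4.79 times. Of the hemoglobin UMIs in leading edge spots, fat-high spots held 40.4% in WT, 69.9% in Early, 37.7% in Advanced 1 and 90.9% in Advanced 2. Sinus macrophage-high spots held 76.7%, 48.7%, 71.0% and 11.04%, more than fat-high spots in WT and Advanced 1 and less in Early and Advanced 2.

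The size of the fat difference came from Early and Advanced 2. Hba-a2 was at 8.91 against 1.86 in Early and 11.8 against 1.01 in Advanced 2, but at 3.57 against 2.71 in Advanced 1 and 1.54 against 0.759 in WT. Hbb-bs in Advanced 1 was at 6.66 against 6.91, the 1 area in which a globin gene was lower. The call depended on the method: DESeq2 and edgeR with robust estimation, the latter added after the data were seen, each called Alas2 alone. Without Early or without the leading 1% of spots 3 passed, and with no area term 2. In those robust fits the 4 globin genes had edgeR adjusted p-values of 0.213 to 0.465.

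**Figure D4:**
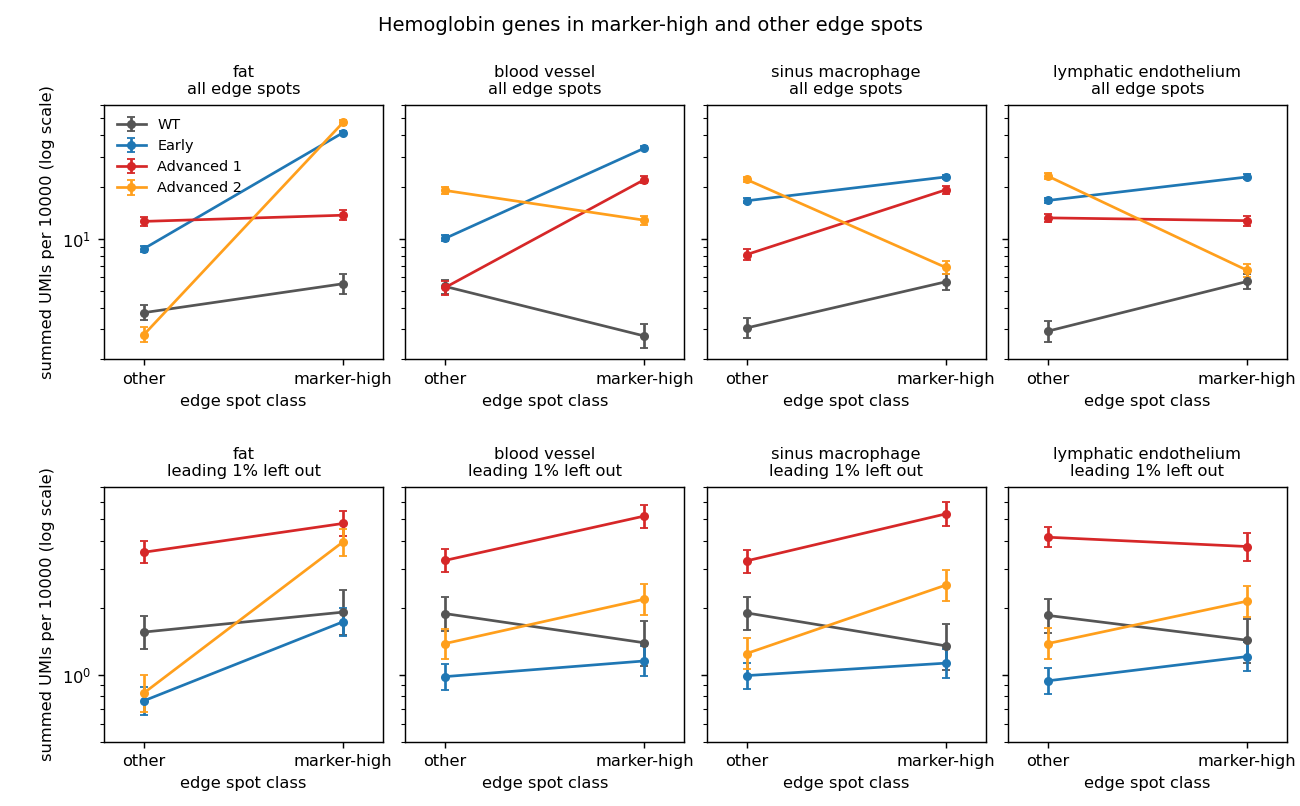
Summed level of the 5 genes (UMIs per 10000, log scale, exact 95% Poisson intervals) in marker-high edge spots and other edge spots for 4 marker lists, with all edge spots of at least 500 UMIs (top) and with the leading 1% of spots left out (bottom). Lines join the classes of an area; only for fat do all 4 lines rise in both rows.

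The leading spots were described by the genes other than the 5, which were taken out of the counts. The 10% of edge spots with at least 500 UMIs that were richest in hemoglobin UMIs per 10000, 22 in WT, 41 in Early, 23 in Advanced 1 and 33 in Advanced 2, were compared with the other edge spots in the same way. Of 10081 genes, 146 passed (1.45%), 116 higher (1.15%) and 30 lower (0.298%). All 9 fat genes tested were higher, with a median log2 difference of 2.17. Adipoq, the adipocyte hormone adiponectin, rose by 2.44 ± 0.38 (edgeR adjusted p = 0.000782), Car3, an adipocyte carbonic anhydrase, by 2.36 ± 0.35 (adjusted p = 0.000644), Cfd, adipsin, by 2.17 ± 0.36 (adjusted p = 0.00163) and Fabp4, a fatty acid binding protein, by 1.52 ± 0.26 (adjusted p = 0.00169).

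The largest rises outside the fixed fat list were of the same kind. Cyp2e1, a cytochrome P450, rose by 2.73 ± 0.35 (edgeR adjusted p = 0.000215), Pck1, an enzyme of glyceroneogenesis, by 2.66 ± 0.40 (adjusted p = 0.000644) and Thrsp, a lipogenic regulator, by 2.66 ± 0.40 (adjusted p = 0.000644), each higher in 4 of 4 areas. Cidec, Pcx, Retn and Me1 completed the 10 largest with Adipoq, Car3 and Cfd. In the areas, Cfd was at 6.23 against 3.66 UMIs per 10000 in WT, 11.6 against 1.16 in Early, 7.47 against 6.44 in Advanced 1 and 35.1 against 2.85 in Advanced 2. Advanced 1 showed almost no fat difference. Without the Early area 4 genes passed in place of 146, of which 1 was a fat gene. Without the Advanced 2 area 34 passed, 6 of them fat genes, and with DESeq2 49 passed, 2 of them fat genes. The robust edgeR fit called 142 genes but 1 of the 9 fat genes.

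Sinus genes did not pass in this comparison. Of 10 sinus macrophage genes and 8 lymphatic endothelial genes tested, 0 passed, with medians of 0.21 and 0.17 on the log2 scale. Only 1.45% of all genes passed, so few calls were to be expected in such short lists. Marco was at 0.17 ± 0.13 (edgeR adjusted p = 0.695) and Lyve1 at 0.21 ± 0.17 (adjusted p = 0.684), each higher in 2 of 4 areas. C1qa, at 0.51 ± 0.14 (adjusted p = 0.0599), and C1qc, at 0.44 ± 0.14 (adjusted p = 0.134), were higher in 4 of 4 areas. Of the 10 macrophage genes 9 were positive. With the richest 20% of edge spots 2 of 11 passed, and with the richest 5% 0 of 11. The blood vessel list had 1 of 12 higher, Vwf, von Willebrand factor, at 1.98 ± 0.38 (adjusted p = 0.00580), and the platelet list 1 of 3, Pf4, platelet factor 4, at 1.52 ± 0.29 (adjusted p = 0.00538). Vwf was lower in WT, at 0.153 against 0.374. Of the contractile genes Tagln and Acta2 passed, and of the capsule list 3 of 7, Col1a2, Col3a1 and Dcn.

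None of the 10 heme synthesis genes passed in the leading spots, with a median of 0.02 on the log2 scale. Of 12 tested genes that clear hemoglobin and heme 1 passed, Hp, haptoglobin, which binds free hemoglobin, at 0.87 ± 0.18 (edgeR adjusted p = 0.0111). Hp also rose in fat-high spots, by 1.78 ± 0.13 (edgeR adjusted p = 1.12e-10). Hmox1 was at -0.05 ± 0.19 (adjusted p = 0.959) in the leading spots and Spic at -0.43 ± 0.23 (adjusted p = 0.485). Lower were Hamp, the iron regulatory hormone hepcidin, at -1.73 ± 0.45 (adjusted p = 0.0468), Il12a at -1.23 ± 0.28 (adjusted p = 0.0209) and Kmt2a at -1.17 ± 0.29 (adjusted p = 0.0363), each in 4 of 4 areas.

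Apart from Alas2, which the choice of genes bars from this test, no gene of the heme synthesis list passed as higher at the rim. In the test of edge against interior spots 890 of 11675 genes passed (7.62%), 483 higher (4.14%) and 407 lower (3.49%), and of the 10 other heme synthesis genes 0 were higher and 2 lower, Slc25a37, the mitochondrial iron importer mitoferrin, at -0.57 ± 0.12 (edgeR adjusted p = 0.00421) and Urod, uroporphyrinogen decarboxylase, at -0.51 ± 0.16 (adjusted p = 0.0479). Of 11 erythroid regulators and enzymes, Mkrn1 and Tent5c were lower and none higher, and Tmod1, a capping protein of actin, was the 1 of 2 red cell membrane genes that was lower, at -1.88 ± 0.38 (adjusted p = 0.00312). Higher were the ferritin chains Ftl1, at 0.67 ± 0.12 (adjusted p = 0.000848), and Fth1, at 0.66 ± 0.12 (adjusted p = 0.000987), and 9 of 10 fat genes. Without the WT, Early, Advanced 1 or Advanced 2 area 1119, 408, 535 and 272 genes passed. Other globin genes were not tested: Hba-x, Hbb-y, Hbb-bh1, Hbb-bh2 and Hbq1b had 0 UMIs on every area and Hbq1a had 1.

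Between whole areas, 6 of 13 genes that clear hemoglobin and heme were lower in the Advanced areas than in the WT area, none was higher and 7 did not pass. The Advanced mice were also older than the WT mice, so genotype, stage and age cannot be told apart here. This fit over whole areas had 1 WT and 1 Early area and 1 residual degree of freedom, so the spread of the lone areas was assumed to be that of the 2 Advanced areas and its p-values hold only under that assumption. In it 272 of 13102 genes differed between Advanced and WT (2.08%), 0.733% being higher in Advanced and 1.34% lower, and 152 between Advanced and Early (1.16%), 0.496% higher and 0.664% lower. DESeq2 called 33 and 7 genes in their place. Slc40a1 was at 1.32 UMIs per 10000 in WT, 0.212 in Early, 0.403 in Advanced 1 and 0.244 in Advanced 2, a log2 difference from WT of -2.14 ± 0.23 that passed with edgeR (adjusted p = 2.77e-18) and with DESeq2 (adjusted p = 0.000586). Hmox1 was at 3.57, 1.58, 0.604 and 1.30, a difference of -2.02 ± 0.18 that passed with edgeR (adjusted p = 5.46e-25) but not with DESeq2 (adjusted p = 1.00). Of 11 sinus macrophage genes 8 were lower with edgeR. The hemoglobin sums, which chose the genes, were 3.52 and 2.95 times WT in the same areas. Against Early, Slc40a1 did not pass (0.53 ± 0.25, edgeR adjusted p = 0.560), and 4 of 13 clearance genes were lower with edgeR, among them Hmox1 (-0.81 ± 0.18, adjusted p = 0.00248), which again did not pass with DESeq2.

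The globin genes were positively correlated over the spots of each area. Over spots with at least 500 UMIs, Pearson's r between pairs of globin genes was 0.71 to 0.80 in Early (707 spots), 0.57 to 0.68 in Advanced 2 (815), 0.41 to 0.56 in Advanced 1 (803) and 0.22 to 0.53 in WT (356). Spots of an area share its section and library, and zeros lower r in sparse counts. Among 3493 other genes the highest median r with the summed level over the 4 areas was 0.29, for mt-Co3, a mitochondrially encoded oxidase subunit, and the 10 nearest genes were 8 mitochondrial ones with Cfd and Car3. The median over all those genes was 0.05. Cfd reached 0.49 in Advanced 2 and 0.35 in Early but 0.11 in Advanced 1.

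The split between the alpha genes changed with the amount of globin RNA in a spot. Hba-a2 was 55.4% of alpha globin UMIs in WT, 48.7% in Early, 64.6% in Advanced 1 and 56.0% in Advanced 2, over all spots. Spots were then grouped by their beta globin UMIs, which do not enter the alpha share. With 100 or more beta globin UMIs the share was 47.1% in Early (95% exact binomial interval 45.2% to 48.9%), 47.5% in Advanced 1 (42.2% to 52.8%) and 48.1% in Advanced 2 (45.2% to 51.0%), which are close to each other. With 1 to 9 it was 61.7% in WT (51.8% to 70.9%), 59.0% in Early (50.8% to 66.8%), 74.0% in Advanced 1 (70.3% to 77.5%) and 85.9% in Advanced 2 (79.9% to 90.6%).

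Hba-a2 therefore had the larger share where globin RNA was scarce. The mean over areas was 70.1% ± 12.4 (SD, n = 4) in spots with 1 to 9 beta globin UMIs and 49.5% ± 7.40 in spots with 10 or more. The difference of 20.7 ± 10.6 percentage points had the same direction in 4 of 4 areas (exact paired permutation test, two-sided p = 0.125, which is the smallest that 4 areas allow). The beta pair moved in the same sense by less: Hbb-bt was 13.2% ± 2.77 against 9.86% ± 2.31 of beta globin UMIs, a difference of 3.38 ± 1.43 points in 4 of 4 areas (exact paired permutation test, two-sided p = 0.125). Spots without any beta globin UMI held 79.2%, 66.1%, 73.3% and 77.5% Hba-a2 among their few alpha UMIs. In the 113-spot field of Advanced 1 the share was 72.9%. Reads shared by the alpha copies limit this split, and how they were assigned at each level of globin RNA was not tested.

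**Figure D5:**
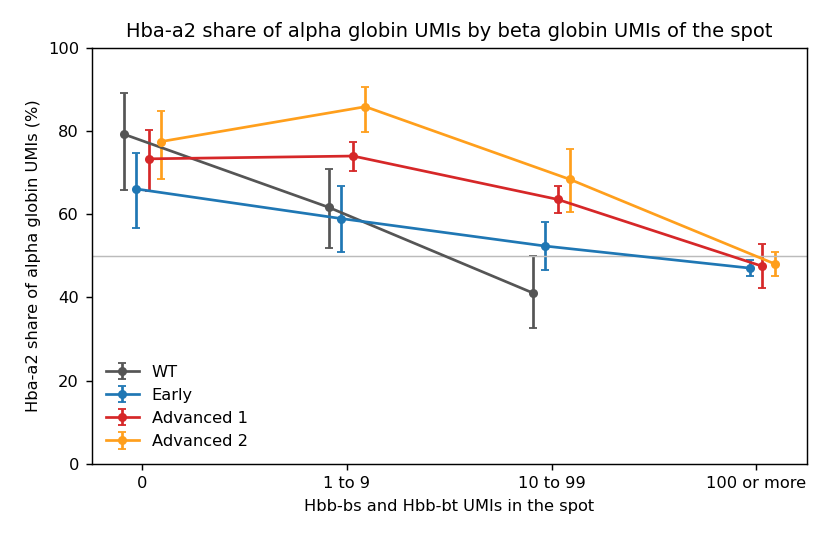
Hba-a2 as a share of Hba-a1 and Hba-a2 UMIs (%, exact 95% binomial intervals) in spots grouped by their Hbb-bs and Hbb-bt UMIs, with 1 line per area and a gray line at 50%. The share falls from 59.0% to 85.9% in spots with 1 to 9 beta globin UMIs to 47.1% to 48.1% in spots with 100 or more, of which WT had none.

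Between whole areas the balance of alpha to beta RNA varied less than the split within the alpha pair. Alpha globin UMIs were 43.8% of all globin UMIs in WT (40.02% to 47.7%) and 44.7% in Early (43.5% to 45.8%), and 45.3% in Advanced 1 (43.8% to 46.8%) and 47.2% in Advanced 2 (45.6% to 48.9%). The 4 areas thus lay within a few percentage points of each other, with WT and Advanced 2 at the ends and their intervals overlapping. Within areas the balance was less steady. In the leading 1% of spots against all others the alpha share was 35.6% against 57.3% in WT and 44.4% against 47.3% in Early. It was 43.5% against 47.1% in Advanced 1 and 46.2% against 54.8% in Advanced 2. If reads shared by the alpha copies were dropped, the alpha share would be too low, which was not tested.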

How the data were processed

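Per the labels, 1 frozen section of lymph nodes was placed on each of 4 capture areas, and the authors ran Space Ranger 1.1.0 on the mouse build mm10 (GRCm38). The deposited files hold raw UMI counts per gene and spot, not normalized, with each spot's array position. How reads shared by near-identical genes were assigned is not given in the sources used here. All spots under tissue were used, without integration, clustering or doublet calls. A spot can hold several cells, so UMI counts were summed per area and spot class before any test.

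Sums were tested with edgeR 4.0.16 in R 4.3.3 (quasi-likelihood F-test, TMM scaling, filterByExpr, area as a block except between stages), with Benjamini-Hochberg adjustment over all genes tested and a threshold of 0.05. The fits were tested on simulated counts with known changes. DESeq2 1.42.0, DESeq2 size factors, no low-count filter, other spot classes, leaving out each area and no area term were alternatives. Robust edgeR estimation, leaving out the leading 1% of spots in the tests, and other splits by beta globin UMIs were added after the data were seen. Intervals are exact 95% Poisson or binomial and, like the limit of 3 counts where none was seen, cover counting error only. Each area was 1 section with pooled animals. The edgeR and DESeq2 p-values rest on a spread between areas that is estimated with help from all genes. A gene can thus pass although its own areas disagree, as Hba-a1, Hba-a2 and Hbb-bt did for blood vessel markers. No batch was labelled, and section and condition cannot be told apart for WT and Early.

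The 5 genes and the gene lists were chosen with earlier results of these data known. Besides the 5, genes were named where they passed or were the 3 most counted of an erythroid list, for other lists by the smallest p (up to 4), in the leading spots by the 10 largest rises and falls (direction shared by 4 of 4 areas, 100 UMIs or more), and by the 10 highest median correlations. Genes named otherwise are said to be so or were chosen after their values were seen. Gene coordinates and coding sequences are from GENCODE on GRCm38 and promoters from RefSeq on GRCm38.p6. Results for some genes are not reported here.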

Additional observations from a re-analysis of the deposited data

Results flagged for a closer look

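Several differences between spot classes pointed opposite ways in the groups. With 1 area for WT and 1 for Early, the difference between groups was not tested for any of them, and each value below is the ratio of UMIs per 10000 in the 2 classes of edge spots.

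For lymphatic endothelial markers the summed level of the 5 hemoglobin genes in marker-high spots was 1.94 times that in the other spots in WT and 1.37 times in Early, but 0.963 times in Advanced 1 and 0.284 times in Advanced 2. With the leading 1% of spots left out it was 0.773 in WT and 1.29 in Early. For blood vessel markers it was 0.516 in WT and 3.34 in Early, and with the leading spots left out 0.739 in WT, 1.18 in Early, 1.58 in Advanced 1 and 1.58 in Advanced 2. For sinus macrophage markers with the leading spots left out it was 0.710 in WT, 1.14 in Early, 1.63 in Advanced 1 and 2.03 in Advanced 2. WT thus stood on the other side of 1 from all 3 TNF-Tg areas for blood vessel and sinus macrophage markers once the leading spots were left out.

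Among other genes, Marco in hemoglobin-rich over other edge spots was at 1.13 in WT and 0.798 in Early, and Lyve1 at 1.60 and 0.812. Vwf, von Willebrand factor of endothelium and platelets, was at 0.410 in WT, 3.66 in Early, 1.89 in Advanced 1 and 10.5 in Advanced 2.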

How the results depend on the processing

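With 4 areas the counts of genes that passed moved with the method. For edge against interior spots 890 genes passed, 536 in spots with at least 500 UMIs, 419 with DESeq2 and 272 to 1119 when an area was left out. For the leading spots 146 passed, 245 with the richest 20% of edge spots, 49 with DESeq2 and 4 to 165 when an area was left out. DESeq2 called 7 genes in place of 152 between Advanced and Early and 33 in place of 272 between Advanced and WT, and these 2 fits could not be tested without an Advanced area, since no residual degrees of freedom were left. With no area term in place of the area block, 159 genes passed for edge spots and 0 for leading spots (885 at an unadjusted p under 0.05 with edgeR), and 0 hemoglobin genes passed for blood vessel and 2 for fat markers. No paired analysis by replicate number was possible because only the Advanced areas are numbered.

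Of the 5 hemoglobin genes, 0 passed for sinus macrophage markers, 1 with no low-count filter and 0 to 3 when an area was left out. For lymphatic markers it was 0, 1 with the top 10% or the top 50% of spots and 0 to 2 when an area was left out, where Hbb-bs, at -0.07, ranged from -0.43 without WT to 0.60 without Advanced 2. For blood vessel markers it was 4, but 1 in spots with at least 1000 UMIs, 0 without the leading 1% of spots, 0 with DESeq2, 1 with robust estimation and 0 to 5 when an area was left out. For fat markers it was 5, but 3 without the leading 1%, 1 with DESeq2, 1 with robust estimation and 3 to 5 when an area was left out. The share of all genes called in each of these alternative fits is not given here. A change in the members called cannot be told apart from a change in calling as a whole.

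Summed levels in WT, Early, Advanced 1 and Advanced 2 were 4.04, 15.5, 13.9 and 11.9 UMIs per 10000 without immunoglobulin genes in the total, 1.59, 1.24, 7.22 and 1.40 without the leading 1% of spots, and, with at least 500 UMIs per spot, 13.6 in Advanced 1 and 11.4 in Advanced 2. The edge to interior ratio was 22.5, 69.2, 4.87 and 113 as UMIs per spot and 1.23, 0.576, 0.403 and 1.87 without the leading 1%. It was 2.31 in Early and 1.16 in Advanced 1 with fewer than 5 neighbors as the edge, and 0.921 in Advanced 1 with at least 500 UMIs. The leading 5% of spots held 87.2%, 96.9%, 80.0% and 96.6% of the UMIs, and the leading 1% by UMIs per 10000 held 42.8%, 91.3%, 39.2% and 86.7%. In Early 70.7% of the leading 5% had a leading neighbor. Of the values of single genes under these alternatives, 943 kept their direction and side of the threshold, 322 lost their call, 12 gained one, 32 moved and 1 reversed. The causes were not tested. Median depths of 140.5 to 250.5 UMIs in interior spots limit what could be detected there.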
